A study of Mus musculus with 24 samples.

Results

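A set of 10 chromatin regulators was followed across the cell types of the ventral hippocampus and between the mouse strains B6 and DBA. They were chosen by name, with no measured value in the rule, as 10 of the 33902 gene symbols of the single-nucleus RNA sequencing (snRNA-seq) table, and all 10 were present. Of these, 6 encode proteins with a CXXC zinc finger (Kdm2a, Kdm2b, Cxxc1, Cxxc4, Cxxc5 and Kmt2a), and 4 encode the catalytic or core subunits of Polycomb repressive complex 2, or PRC2 (Ezh1, Ezh2, Eed and Suz12).

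A CXXC zinc finger of this kind binds CpG dinucleotides that are not methylated, and so brings its protein to CpG islands, the CpG-dense stretches at many gene starts. Kdm2a and Kdm2b remove methyl groups from lysine 36 of histone H3, Cxxc1 and Kmt2a serve the complexes that methylate lysine 4, and Kdm2b also brings a variant of Polycomb repressive complex 1 to CpG islands. PRC2 methylates lysine 27 of histone H3 at the CpG islands of silent developmental genes, with Ezh2 as its catalytic subunit in dividing cells and Ezh1 as the one that prevails in many cells that no longer divide.

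The study compared DNA methylation, expression and open chromatin between inbred strains. The RNA groups were untreated adult males of the strains B6 and DBA, aged 10 to 16 weeks, with 2 libraries a strain, about 2 animals pooled per library and nuclei sorted on NeuN, a protein of neuronal nuclei, to enrich neurons. Each library was deposited as counts summed over the nuclei of each of 17 cell types that the authors had defined from the same nuclei: 8 excitatory types, 3 inhibitory types, Cajal-Retzius cells (CR-CR) and 5 non-neuronal types. The same strains were measured, without the NeuN sort, by single-nucleus ATAC sequencing (snATAC-seq, which counts fragments from open chromatin) in 15 of these types, without CR-CR and NN-VLMC. Nothing in the sources ties the libraries to single animals, so p-values measure the spread between these pools.

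The 68 RNA columns held between 139713 counts (CR-CR) and 11352265 counts (Exc-DG), from 45 to 1489 nuclei each. Levels are given as CPM, counts scaled to a common column total, which do not correct for gene length and so are compared between cell types or strains, never between genes. In summed counts of this kind, less RNA per nucleus and fewer nuclei that express a gene cannot be told apart. Of 47 marker assignments for the cell types, 39 had their highest level in the type they mark, the dentate marker Prox1 being higher in CR-CR. The CR-CR columns stood apart between libraries: the summed level of Reln, Trp73 and Lhx1, which mark Cajal-Retzius cells, reached 4846 and 5357 CPM for B6 but 3264 and 1361 CPM for DBA, while the dentate markers Prox1, C1ql2 and Dsp summed to 252, 201, 351 and 597 CPM in the same order. Values in CR-CR are therefore given by library.

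The 250 bases before the annotated 5′ end are shown for Cxxc4 and Ezh2, the members whose level varied most between cell types, and for Suz12, whose start is among the most CpG-dense. Each is written 5′ to 3′ on the strand of its gene, in build GRCm38.p6, with every CG in capitals.
Cxxc4, chr3:134236234-134236483, plus strand: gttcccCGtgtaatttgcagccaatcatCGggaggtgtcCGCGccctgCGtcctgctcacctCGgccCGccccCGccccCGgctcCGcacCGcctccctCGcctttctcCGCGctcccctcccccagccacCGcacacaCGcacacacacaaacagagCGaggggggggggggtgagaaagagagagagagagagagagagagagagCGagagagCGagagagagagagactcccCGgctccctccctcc
Ezh2, chr6:47595342-47595591, minus strand: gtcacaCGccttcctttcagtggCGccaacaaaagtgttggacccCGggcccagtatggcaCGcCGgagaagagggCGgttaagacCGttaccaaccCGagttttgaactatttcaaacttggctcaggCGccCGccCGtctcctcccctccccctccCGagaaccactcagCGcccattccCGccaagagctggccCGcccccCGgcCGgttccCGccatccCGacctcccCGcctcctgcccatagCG
Suz12, chr11:79992856-79993105, plus strand: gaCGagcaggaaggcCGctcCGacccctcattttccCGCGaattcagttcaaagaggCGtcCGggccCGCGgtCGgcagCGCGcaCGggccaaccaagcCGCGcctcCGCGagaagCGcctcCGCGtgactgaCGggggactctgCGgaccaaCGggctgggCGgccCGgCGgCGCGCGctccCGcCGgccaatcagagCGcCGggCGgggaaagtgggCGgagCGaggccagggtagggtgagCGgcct

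The Cxxc4 stretch held 20 CG, that of Ezh2 21 and that of Suz12 37. The letters CG, which read the same on both strands, occurred at least once in 92.4% of all protein-coding promoters of this length, with a median of 8. Over 2000 bases centred on the start, the density was 38.5 CpG per kb for Cxxc4, 78.5 for Ezh2 and 82.5 for Suz12, beside a median of 30.5 over 21875 protein-coding genes. Of the 10 members, 8 lay above 40 CpG per kb, a density that 36.7% of those genes exceeded. The others were Cxxc4 and Kdm2b, at 34.0.

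Kdm2a (chr19:4314419-4398285, minus strand, mm10) was highest in NN-MGC, the microglia. Its 4 libraries there had 251 and 234 CPM (B6) and 271 and 228 CPM (DBA), above every library of the next type, NN-VLMC, the vascular and leptomeningeal cells (mean 195 ± 19.7 CPM, SD, n = 4). The 8 excitatory types had means between 99.6 and 115 CPM and the 3 inhibitory types between 111 and 117 CPM, with neighbours in the order that overlapped. The mean in NN-MGC was 2.47 times that in the lowest type, Exc-Gpc6, or 1.83 times between the highest and lowest types when library sizes were normalized by the trimmed mean of M values (TMM).

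Kdm2b (chr5:122870665-122989823, minus strand) was also highest in NN-MGC but lowest in astrocytes and oligodendrocytes. Its NN-MGC levels were 126 and 120 CPM in B6 and 187 and 174 CPM in DBA. NN-Astro (astrocytes) had 40.3 ± 5.42 CPM (SD, n = 4) and NN-ODC (oligodendrocytes) 43.0 ± 4.08 CPM, and these neighbours did not differ beyond their spread. Every library of both lay below every library of the type above them, Exc-Gpc6 (62.1 ± 5.87 CPM). Among neurons Exc-CA3 had the highest mean after CR-CR, 103 ± 2.04 CPM.

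Cxxc1 (chr18:74216124-74221496, plus strand), the CpG-binding subunit of the SETD1 methyltransferase complexes, had the narrowest range of type means in CPM (1.70 times between highest and lowest), though with TMM-normalized sizes the ratio was 2.02, above Kmt2a (1.89) and Kdm2a (1.83). Its type means ran from 20.2 ± 3.14 CPM in Inh-CGE to 34.3 ± 5.77 CPM in NN-OPC, the oligodendrocyte precursors, and no neighbouring pair of the 17 types was separated in all libraries. Kmt2a (chr9:44803355-44881296, minus strand), a lysine 4 methyltransferase, ran from 159 ± 22.2 CPM in NN-Astro to 298 ± 41.7 CPM in CR-CR, again with no separated neighbours. The next types below CR-CR were the 3 inhibitory ones, from Inh-MGE at 250 ± 6.72 CPM to Inh-Lamp5 at 228 ± 18.9 CPM. With TMM-normalized sizes Inh-MGE was the highest type for Kmt2a and NN-MGC the lowest.

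Cxxc4 (chr3:134236484-134262161, plus strand), which encodes a small CXXC protein known as an inhibitor of Wnt signalling, varied widely even among excitatory neurons. In Exc-ENT it was at 79.4 and 63.4 CPM in B6 and 79.1 and 86.2 CPM in DBA. In Exc-DG, the dentate granule neurons, it was at 5.64 and 6.17 CPM in B6 and 5.55 and 6.59 CPM in DBA. The dentate values were below every library of Exc-CA3 (15.9 ± 2.42 CPM) and of the 3 CA1 types, whose means were 29.8 CPM in Exc-CA1-Galntl6, 34.6 CPM in Exc-CA1-Camk2d and 60.3 CPM in Exc-CA1-Fras1.

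The oligodendrocyte lineage split in the same gene. NN-OPC had 54.0, 56.3, 66.9 and 51.2 CPM of Cxxc4, and NN-ODC had 6.17, 7.36, 3.599 and 3.37 CPM, with no overlap. Exc-DG, NN-MGC (5.74 ± 3.18 CPM) and NN-ODC formed the bottom of the order and did not differ from each other beyond their spread. The highest mean, 93.9 CPM in CR-CR, rested on unlike libraries at 123, 149, 78.7 and 24.6 CPM that fell with the Cajal-Retzius marker sum given above, and the part of that sum in the difference was not tested. With TMM-normalized sizes Exc-ENT was the highest type. In NN-VLMC 1 B6 library had 0 Cxxc4 counts of 225029, where 3 counts would have been 13.3 CPM.

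Cxxc5 (chr18:35829397-35861688, plus strand), the close relative of Cxxc4, was highest in NN-MGC and lowest in Inh-Lamp5, but in every type both B6 libraries lay above both DBA libraries, and its levels are described with the strains. In the B6 libraries alone it averaged 86.0 CPM in NN-MGC and 40.3 CPM in NN-ODC, beside 23.4 CPM in Exc-DG and 9.98 CPM in Inh-MGE.

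**Figure D1:**
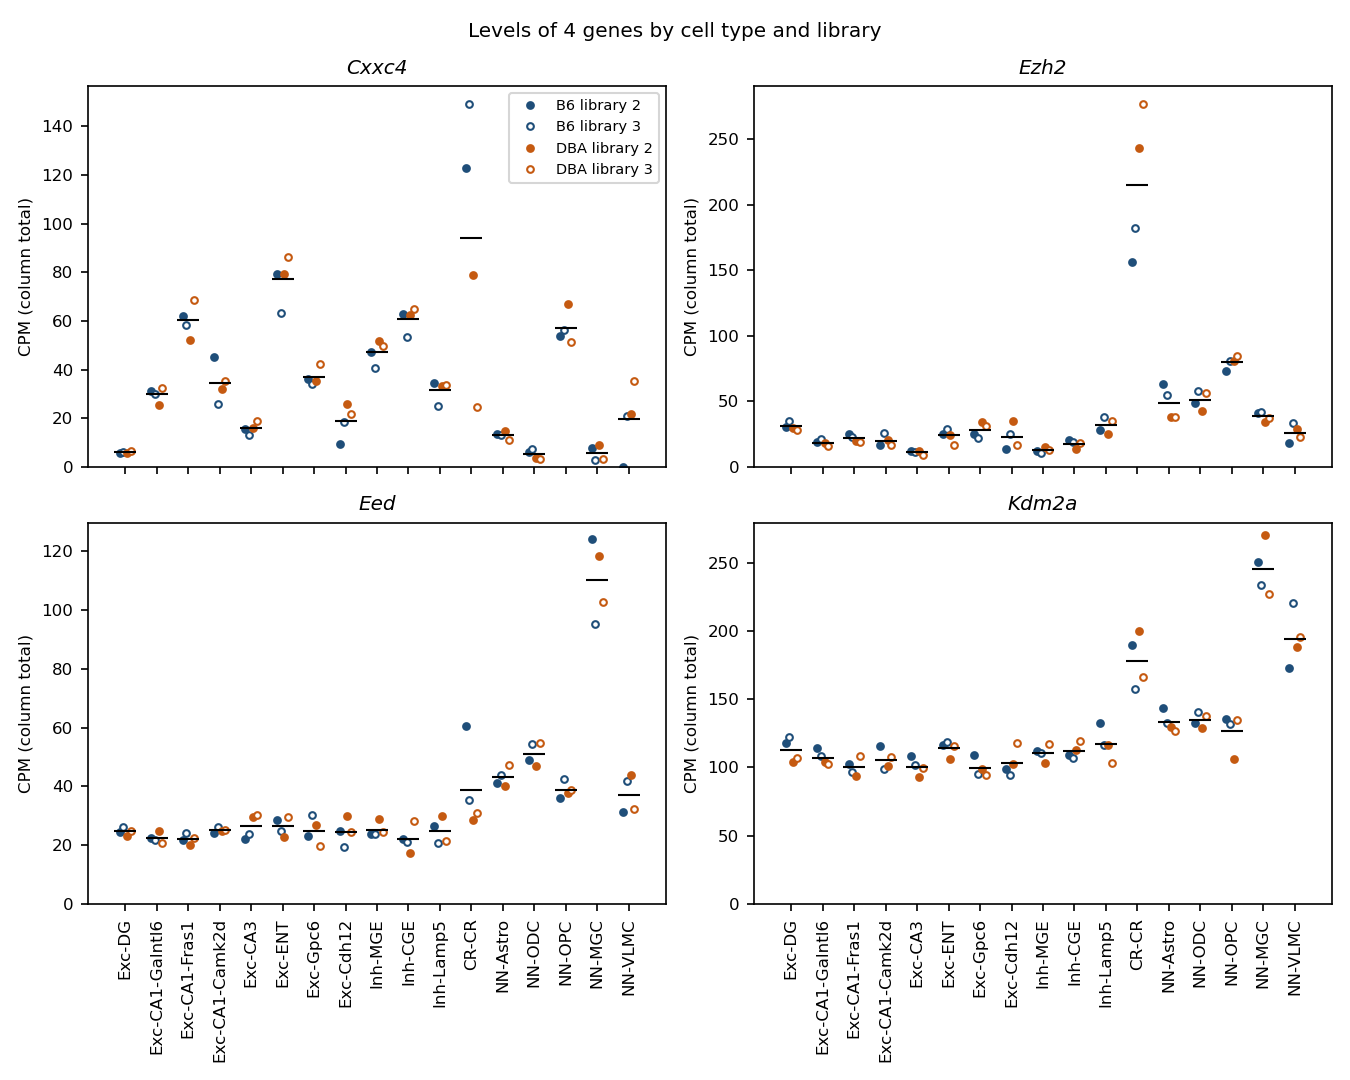
Levels of Cxxc4, Ezh2, Eed and Kdm2a in CPM (linear axes from 0) in each of the 17 cell types, with 1 point per library and a line at the mean of the 4 libraries; B6 is blue and DBA orange. Cxxc4 is low in Exc-DG and NN-ODC, Ezh2 is highest in CR-CR and NN-OPC, and Eed and Kdm2a are highest in NN-MGC.

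Ezh2 (chr6:47530139-47595341, minus strand) was low in most neurons and high in CR-CR and NN-OPC. CR-CR had 156 and 182 CPM in B6 and 243 and 277 CPM in DBA, above every library of every other type. NN-OPC followed at 73.4, 80.7, 80.8 and 84.2 CPM and was itself above every library of the types below it, led by NN-ODC at 51.3 ± 7.23 CPM. The lowest means were 11.1 ± 1.22 CPM in Exc-CA3 and 12.6 ± 1.96 CPM in Inh-MGE. Within CR-CR the DBA libraries had less Cajal-Retzius marker signal (1361 and 3264 CPM) and more Ezh2 (277 and 243 CPM) than the B6 libraries. Within B6, more Ezh2 (182 against 156 CPM) went with more marker signal (5357 against 4846 CPM). Strain and marker signal cannot be told apart here, and the part of other nuclei of this cluster in the Ezh2 level was not tested. The ratio of CR-CR to Exc-CA3 was 19.3, or 12.98 with TMM-normalized sizes.

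Ezh1 (chr11:101191115-101226463, minus strand) had another order. It was highest in NN-VLMC, at 182 and 148 CPM in B6 and 116 and 96.3 CPM in DBA, all above Exc-CA3 (78.1 ± 3.16 CPM), which was second. With TMM-normalized sizes NN-VLMC was still highest (mean 104 CPM) but was not separated from Exc-CA3 (mean 87.0 CPM) in all libraries. The 8 excitatory types lay between 43.2 and 78.1 CPM. NN-OPC, where Ezh2 was second highest, was the lowest type for Ezh1 at 36.6 ± 6.76 CPM. Exc-CA3 was second from the top for Ezh1 and the lowest for Ezh2.

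Eed (chr7:89954654-89980983, minus strand), the subunit that binds trimethylated lysine 27, was even across the excitatory and inhibitory types and higher in the non-neuronal types. Its means were between 22.0 and 26.4 CPM in the 11 excitatory and inhibitory types and between 37.2 and 51.1 CPM in 4 of the non-neuronal types. CR-CR had 60.4, 35.2, 28.6 and 30.8 CPM, a mean of 38.8 within the range of those 4. Its DBA values, from 4 and 5 counts, were close to those of Exc-CA3 in DBA (29.4 and 30.2 CPM). NN-MGC stood above all others at 124, 95.4, 118 and 103 CPM. Suz12 (chr11:79993106-80034123, plus strand), the scaffold of the complex, was highest in NN-Astro at 128 and 136 CPM in B6 and 95.5 and 93.7 CPM in DBA. It lay between 44.5 and 61.1 CPM in the 11 excitatory and inhibitory types and between 68.9 and 113 CPM in the non-neuronal types. CR-CR was second highest at 77.1, 106, 78.7 and 123 CPM and was not separated from NN-Astro.

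The class differences were tested in a single edgeR quasi-likelihood fit over all 68 columns, with library as a covariate and Benjamini-Hochberg adjustment over 18599 symbols. The types were defined from these same nuclei, and the 4 libraries are shared by all types, so these tests describe how far the annotated types differ. Between the 12 neuronal and 5 non-neuronal types, 3 members were higher in neurons, beside 30.1% of all symbols, and 6 were lower, beside 29.2%. With 59.2% of all symbols called in this contrast, being called was common; the median difference was -0.30 over the members and -0.0053 over all symbols. With counts summed over each class, which gives deep types more weight, 9 members were again called, with a median of -0.049 over the members.

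Higher in neurons were Cxxc4 (log2 fold change 1.51, SE 0.10, adjusted p = 2.44e-23), Kmt2a (0.50, SE 0.035) and Kdm2b (0.46, SE 0.045). The Cxxc4 value was 2.28 without B6 library 3 and 1.00 with class sums, which gave 0.76 for Kdm2b. Of the PRC2 members, Eed (-0.90, SE 0.067, adjusted p = 2.26e-21), Ezh2 (-0.74, SE 0.077) and Suz12 (-0.54, SE 0.054) were lower in neurons. Ezh1 was lower by a small margin (-0.19, SE 0.049, adjusted p = 0.000332), and its sign turned to 0.13 with class sums. Cxxc5 (-0.94, SE 0.12) and Kdm2a (-0.40, SE 0.034) were also lower in neurons (Kdm2a -0.22 with class sums), and Cxxc1 (0.14, SE 0.079) was not called. With CR-CR left out of the neuronal mean, though kept in the fit, the same number of members, 9, was called and the Ezh2 difference was -0.98.

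Between inhibitory and excitatory types, 2 members were higher in the inhibitory types (background 24.1%) and 5 lower (background 26.5%). Cxxc4 (0.61, SE 0.076) and Kmt2a (0.12, SE 0.037) were higher, and Cxxc5 (-1.11, SE 0.18), Cxxc1 (-0.29, SE 0.076), Ezh1 (-0.27, SE 0.055), Ezh2 (-0.26, SE 0.083) and Kdm2b (-0.16, SE 0.046) lower. The median was -0.15 over the members and -0.036 over all symbols. Without DBA library 2 3 of these 7 calls remained, those of Cxxc4, Cxxc5 and Ezh1, and Cxxc5 moved to -1.71 and Ezh2 to -0.12. The Ezh2 call was also lost without B6 library 3 (-0.19), where Kmt2a was 0.18, and the Kmt2a call without B6 library 2 (0.098). Class sums kept the number called at 7, with Cxxc5 at -0.62, Ezh2 at -0.48, Kdm2b at -0.28 and Kmt2a at 0.21. Suz12 (0.043, SE 0.060), Kdm2a (0.0046, SE 0.040) and Eed (-0.13, SE 0.076) were not called.

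Between Exc-DG and the CA1 and CA3 types, 4 members were higher in Exc-DG (background 27.6%) and 2 lower (background 23.2%). Cxxc4 was lower by -2.35 (SE 0.11, adjusted p = 7.49e-34), while Ezh2 was higher by 0.86 (SE 0.078, adjusted p = 8.70e-17). Suz12 (0.30, SE 0.067), Ezh1 (0.16, SE 0.058) and Kdm2a (0.16, SE 0.050) were higher by less and Kdm2b was lower by -0.13 (SE 0.055, adjusted p = 0.048). The median was 0.14 over the members and 0.032 over all symbols. The number called was 3 without DBA library 2 (Cxxc4, Ezh2 and Suz12), 4 without DBA library 3, and 5 without B6 library 2, which lost Ezh1, or B6 library 3, which lost Kdm2b.

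Between oligodendrocytes and their precursors, 4 members were higher in NN-ODC (background 21.5%) and 4 lower (background 23.9%). Cxxc4 was lower by -3.34 (SE 0.22, adjusted p = 1.55e-23), the largest difference of a member in the 4 contrasts, whereas Cxxc5 was higher by 1.48 (SE 0.23). The catalytic subunits of PRC2 differed in opposite directions, Ezh1 by 0.84 (SE 0.13) and Ezh2 by -0.45 (SE 0.12). Eed was higher by 0.59 (SE 0.13) and Kdm2a by 0.28 (SE 0.083), and Cxxc1 (-0.50, SE 0.16) and Kdm2b (-0.46, SE 0.12) were lower. The Cxxc1 call was lost without B6 library 2 (-0.39) or DBA library 3 (-0.39), the Kdm2b call without DBA library 3 (-0.36) and the Kdm2a call without B6 library 3 (0.22) or DBA library 2 (0.22). The median was 0.12 over the members and 0.0034 over all symbols.

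**Figure D2:**
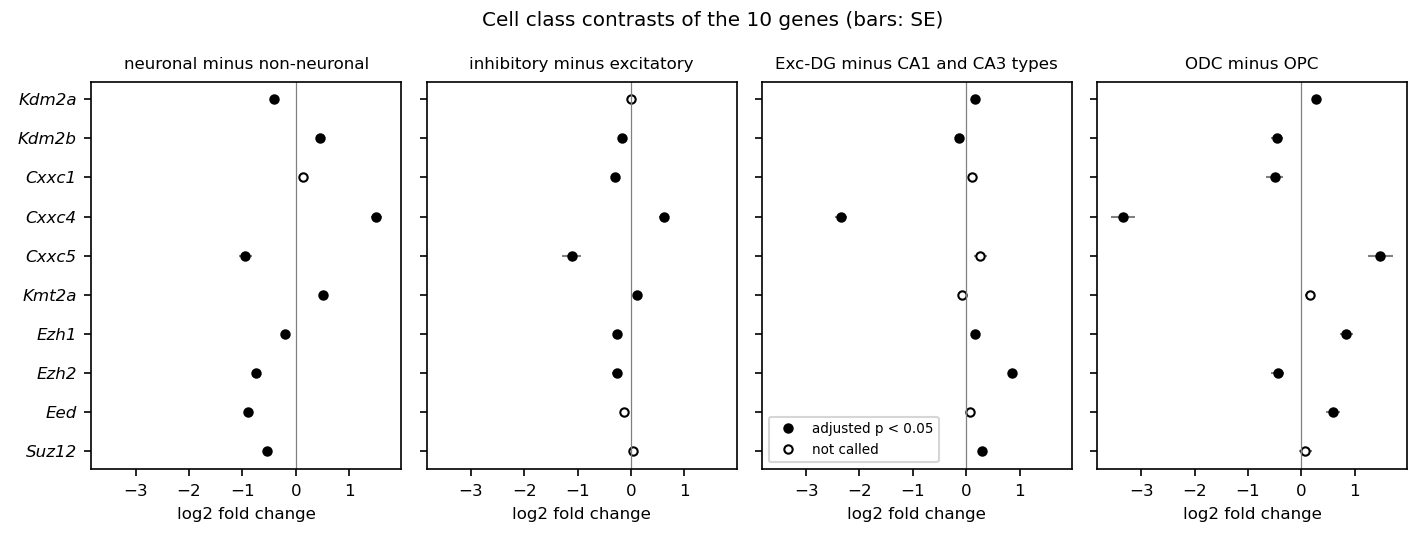
Log2 fold changes of the 10 members in the 4 class contrasts, with bars of 1 SE; filled points passed an adjusted p of 0.05 and open points did not. Cxxc4 has the largest positive value in the neuronal contrast (1.51) and the largest negative values in the Exc-DG (-2.35) and ODC (-3.34) contrasts.

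Between the strains the members were compared in each cell type on its own. Of 166 tests that passed the filter on low counts, 18 were called lower in DBA, beside 8.4% of all symbol-by-type tests, and 1 was called higher, beside 6.24%. Of the 18, 13 were Cxxc5. The other 9 members had 6 calls in 151 tests, or 3.97%, under the share of 14.6% over all symbols, with a median log2 fold change of -0.082 beside 0.0067. Over all 10 members the median was -0.11. Without DBA library 3 there were 12 calls in all and 1 outside Cxxc5, and DESeq2 made 7 and 1, the latter being Ezh1 in Exc-DG.

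Cxxc5 was lower in DBA in 13 of the 15 types in which it was tested. Of the 18305 symbols tested in at least 1 type, 0.929% were called lower in at least 13 types. That share includes symbols tested in fewer than 13 types, which could not reach this number, so it understates the share among symbols tested as widely as Cxxc5. In Exc-DG it was at 23.8 and 23.0 CPM in B6 and 5.11 and 4.43 CPM in DBA (log2 fold change -2.31, SE 0.16, adjusted p = 3.10e-08). In Exc-CA3 it was at 28.1 and 23.6 CPM in B6 and 4.84 and 3.05 CPM in DBA (-2.70, SE 0.23). In NN-MGC it was at 91.4 and 80.6 CPM in B6 and 25.0 and 21.9 CPM in DBA (-1.82, SE 0.31). In Inh-MGE, the smallest difference called, it was at 10.5 and 9.48 CPM against 5.65 and 4.21 CPM (-1.01, SE 0.32, adjusted p = 0.045).

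Both B6 libraries were above both DBA libraries in all 17 types for Cxxc5, an arrangement found in 26.6% of all symbol-by-type tests. The 2 tested types without a call were CR-CR (-1.65, SE 0.66, adjusted p = 0.224) and Exc-Cdh12 (-1.37, SE 0.48, adjusted p = 0.172). Inh-Lamp5 and NN-VLMC did not pass the filter; in Inh-Lamp5 1 DBA library had 0 counts of 747867, where 3 counts would have been 4.01 CPM. DESeq2 called 6 types and fits without 1 library called 10 to 13. The Inh-MGE call was lost without any 1 of the 4 libraries (-1.29 to -0.83). The Inh-CGE call was lost without B6 library 2 (-1.38), DBA library 2 (-1.14) or DBA library 3 (-2.30), and the Exc-CA1-Camk2d call without DBA library 2 (-2.19). In Inh-CGE without either DBA library, and in Exc-CA1-Camk2d without DBA library 2, calls over all symbols also fell steeply. Those losses were therefore not particular to Cxxc5.

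The annotation of Cxxc5 overlaps that of another gene. In GENCODE vM21, 89.9% of the gene's span is shared on the same strand with the transcript AC141471.2 (chr18:35799842-35858441), a symbol that is not a row of the table, while the other members share at most 3.51%. The rows with counts also differed between strains, 960 symbols having counts in B6 only and 8204 in DBA only. The transcripts that overlap Kmt2a, Kdm2b and Eed on their strand had counts in DBA only (205 for Gm48314 in Kmt2a). Their part in the strain results was not tested. In Exc-DG, 46.4% of 362 protein-coding genes that share at least 80% of their span on their strand were called lower in DBA and 6.35% higher, beside 11.5% and 11.9% of 12186 genes that share under 10%; this split was chosen after the Cxxc5 values were seen. Of the 362, 71 had a log2 fold change at or below that of Cxxc5, as did 76 of the 12186. For Cxxc5, strain and the set of genes counted in each strain cannot be told apart.

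**Figure D3:**
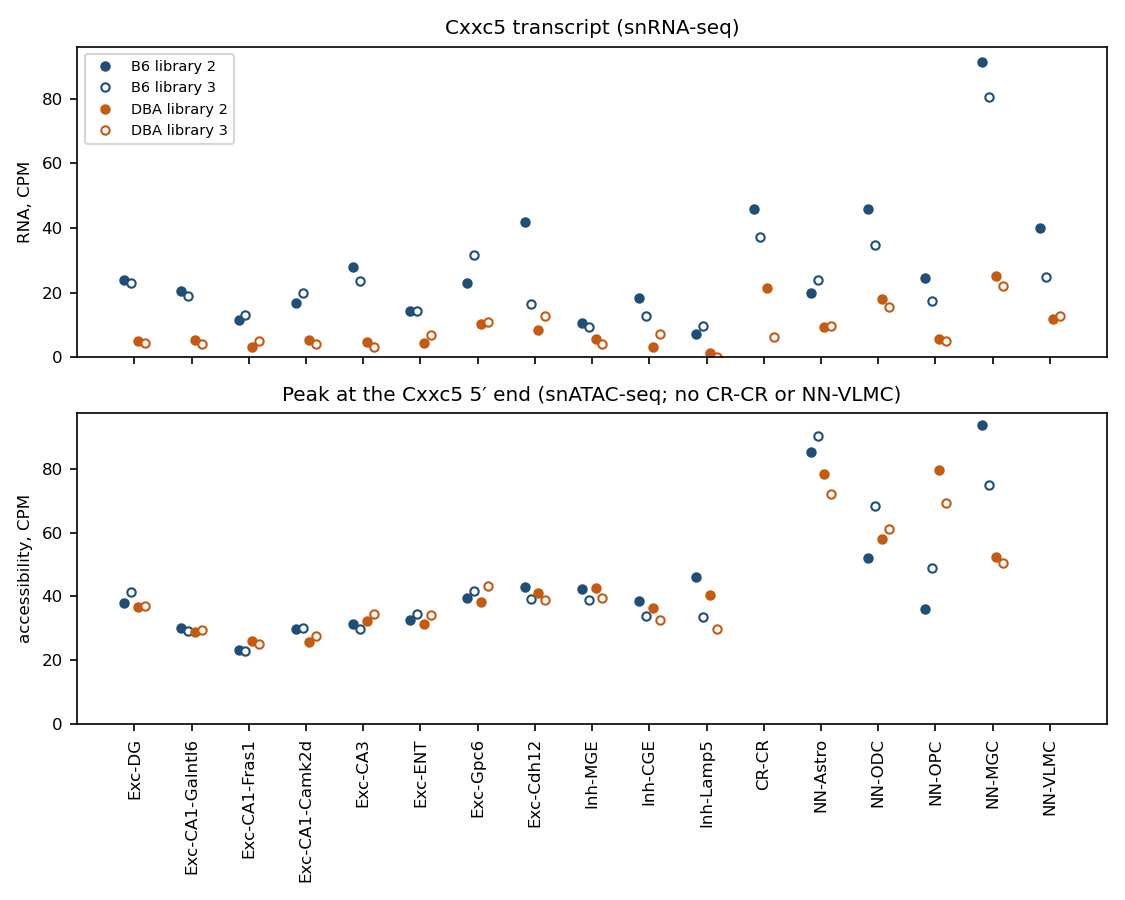
Cxxc5 transcript level (top, CPM) and accessibility of the peak at its 5′ end (bottom, CPM) in each library of each cell type, with linear axes from 0; B6 is blue and DBA orange. The transcript is lower in both DBA libraries in all 17 types, while the values of the peak overlap or lie close together in the neuronal types.

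Accessibility is counted over peaks and not over gene models, and at the annotated 5′ end of Cxxc5 it was not called different in any type. The peak at chr18:35829322-35832230 had 38.0 and 41.3 CPM in B6 and 36.7 and 36.9 CPM in DBA in Exc-DG, a log2 fold change of -0.07 (SE 0.066, adjusted p = 0.658). In Exc-CA3, where the transcript differed most, it had 31.2 and 29.8 CPM in B6 and 32.4 and 34.4 CPM in DBA (0.17, SE 0.074, adjusted p = 0.191). Over 15 types the peak's fold change was negative in 8 and positive in 7, with a median of -0.033. The median for the transcript was -1.66 over the 15 types in which it was tested, which include CR-CR and leave out Inh-Lamp5. In NN-MGC it was -0.74 (SE 0.29, adjusted p = 0.781), from 94.0 and 75.1 CPM to 52.4 and 50.6 CPM, in columns of 23 to 54 nuclei. A second peak near another annotated start of the gene (chr18:35855377-35856088) had a negative fold change in 9 of the 13 types tested and a positive one in 4. In NN-Astro it had 25.6 and 18.5 CPM in B6 and 13.8 and 10.7 CPM in DBA, and in NN-ODC 61.2 and 46.5 against 41.8 and 39.7 CPM. It was called in 0 of the 13 types tested (smallest adjusted p = 0.485).

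The remaining calls between strains were smaller. In Exc-DG, Ezh1 was at 73.1 and 64.1 CPM in B6 and 53.3 and 50.9 CPM in DBA (-0.42, SE 0.096, adjusted p = 0.0044), and Cxxc1 at 27.9 and 29.0 against 24.2 and 21.8 CPM (-0.33, SE 0.11, adjusted p = 0.048). In Exc-CA1-Fras1, Kmt2a was at 195 and 237 against 177 and 196 CPM (-0.29, SE 0.099, adjusted p = 0.041), which overlap in CPM. The Ezh1 call was lost without DBA library 3 (-0.37), the Kmt2a call without B6 library 3 (-0.14), DBA library 2 (-0.23) or DBA library 3 (-0.34), and the Cxxc1 call without any 1 of the 4 libraries (-0.42 to -0.24). Over the 17 types, which share the same 4 libraries, the fold changes of Kmt2a ran from -0.36 to -0.082 and 1 was called. How often other symbols kept 1 sign over all types was not counted. Marker sums moved with strain in these columns too. In Exc-DG the dentate markers summed to 359 and 377 CPM in B6 and 280 and 292 CPM in DBA, and the oligodendrocyte markers Mog, Mbp and Mobp to 149 and 150 against 113 and 107 CPM. In all, 7 of 14 marker sets were lower in both DBA libraries of Exc-DG and 1 was higher in both. For single symbols, both DBA libraries were lower in 26.6% of all symbol-by-type tests, and the share for other sets of genes was not counted. Some marker sets share a gene (Prox1 or Gad2). In Exc-CA1-Fras1 the 3 oligodendrocyte markers summed to 115 and 116 against 78.3 and 80.9 CPM, with 3 sets lower and 4 higher. Most of each sum was Mbp (134 and 134 against 106 and 101 CPM in Exc-DG). Mog overlapped between strains in both types, at 3.16 and 2.82 against 2.89 and 2.66 CPM in Exc-DG. In Exc-CA1-Fras1 Mog was at 2.62 and 1.53 against 3.19 and 1.91 CPM. Mobp was lower in both DBA libraries of both types. The part of the marker sums in these results was not tested.

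In NN-Astro, both Ezh2 and Suz12 were lower in DBA. Ezh2 was at 63.0 and 54.96 CPM in B6 and 37.9 and 38.3 CPM in DBA (-0.54, SE 0.14, adjusted p = 0.0070), and Suz12 differed by -0.39 (SE 0.11, adjusted p = 0.012) between the levels given above. The groups did not overlap for either gene. The oligodendrocyte markers Mog, Mbp and Mobp summed to 224 and 198 CPM in the B6 and 91.9 and 76.7 CPM in the DBA astrocyte columns, and their part in the result was not tested, while the astrocyte markers summed to 2534 to 2696 and 2484 to 2673 CPM. Of the 14 sets, 8 were lower in both DBA libraries, beside 26.6% of all symbol-by-type tests, and 3 higher. The Ezh2 call was lost without B6 library 2 (-0.42) and the Suz12 call without DBA library 2 (-0.40) or DBA library 3 (-0.37).

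Kdm2b in NN-MGC was the only member called higher in DBA, at the levels given above (0.60, SE 0.18, adjusted p = 0.039). The call was lost without any 1 of the 4 libraries (0.56 to 0.67) and with the library number as a block. The sum of the same 3 oligodendrocyte markers in these columns was 214 and 206 CPM in B6 and 164 and 74.2 CPM in DBA, and that of the microglial markers 4305 and 4427 against 4642 and 5193 CPM. Among the oligodendrocyte markers, Mog overlapped between strains, at 13.6 and 14.8 against 22.8 and 5.06 CPM, and Mbp and Mobp did not. Of the 14 sets, 10 were lower in both DBA libraries, beside 26.6% of all symbol-by-type tests, and 2 higher. The part of these sets in the result was not tested. Summed over the non-neuronal types the difference was 0.30 (SE 0.095, adjusted p = 0.046), and over the excitatory types 0.0085 (SE 0.067).

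Whether a strain difference itself varied between classes was tested in the common fit. Between inhibitory and excitatory types edgeR called 0 of the 10 members (background 1.94%), with 0 at an unadjusted p under 0.05, and DESeq2 called 0. Between neuronal and non-neuronal types it called 1 (background 5.8%), Kdm2b, whose strain difference was lower in neurons by -0.30 (SE 0.093, adjusted p = 0.037). That call was lost when any 1 library was left out (-0.39 to -0.19). It was also lost with no library block (adjusted p = 0.054), at least 1 count (0.052), all symbols (0.067) or class sums (0.116). The call was made by DESeq2 (0.026), with RLE factors (0.040) and with CR-CR left out of the neuronal mean (0.023). The strain difference of Cxxc5 was lower in neurons by -0.49 (SE 0.23, adjusted p = 0.238), which was not called.

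**Figure D4:**
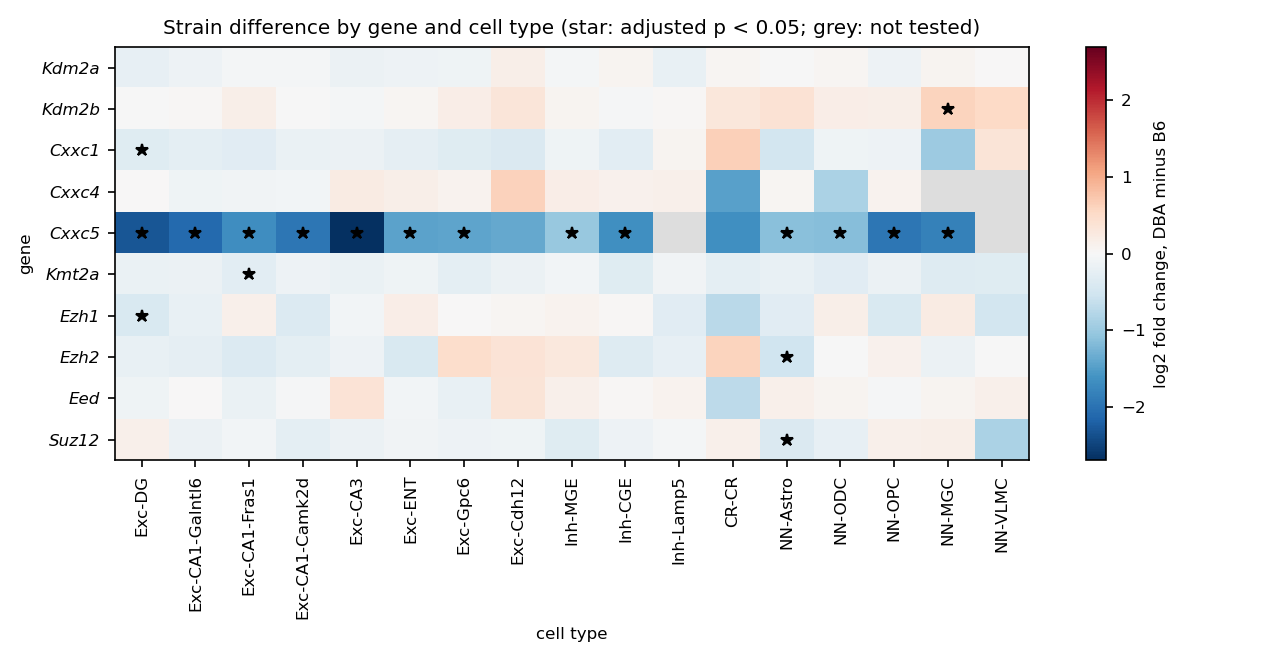
Log2 fold change between strains (DBA minus B6) for each member and cell type, with stars at an adjusted p under 0.05 and grey where the member was not tested. Of the 19 stars, 13 lie in the Cxxc5 row and the single positive one is Kdm2b in NN-MGC.

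The promoters of all members were compared between strains in the snATAC-seq counts. In all, 16 peaks lay within 1000 bases of an annotated start of a member, which gave 218 peak-by-type tests. Of these, 0 were called by edgeR and 0 by DESeq2, beside 2.16% of all peak-by-type tests lower in DBA and 2.14% higher. At an unadjusted p under 0.05 there were 14, of which 4 were lower and 10 higher, and DESeq2 had 2. The median log2 fold change was -0.0057 over these tests. Without DBA library 3 there was 1 call, a Kdm2a peak (chr19:4396079-4398628) in Exc-CA3 (adjusted p = 0.038).

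Across cell types the accessibility of a promoter moved with the transcript for some members. The Cxxc4 peak (chr3:134235619-134236619), which covers the sequence shown above, was lowest in Exc-DG at 9.32 ± 0.707 CPM (SD, n = 4), where it overlapped Exc-CA3 at 9.91 ± 0.456 CPM, and highest in NN-OPC at 31.3 ± 9.88 CPM, and NN-ODC had 15.9 ± 4.88 CPM. Pearson's r between peak and transcript, each as log2 of the mean CPM plus 0.5, over the 15 types was 0.72 for Cxxc4, 0.63 for Ezh2, 0.73 for Eed and 0.89 for Suz12, but -0.26 for Kmt2a and -0.14 for Cxxc1. The value was 0.14 for Ezh1, 0.68 and 0.72 for the peaks of Kdm2a, 0.57 and 0.35 for those of Cxxc5 and -0.28 to 0.64 for those of Kdm2b. These are descriptions over types that share their libraries, and the 4 non-neuronal types had only 14 to 65 nuclei a column. The peaks of Kmt2a and Cxxc1, whose transcripts were not highest in NN-ODC, were highest there (123 and 77.0 CPM). The part in these r values of higher promoter counts in non-neuronal types was not tested. The Ezh2 peak (chr6:47593799-47595739) was highest in NN-ODC at 86.0 ± 9.56 CPM but at 35.3 ± 7.69 CPM in NN-OPC, where the transcript was higher than in NN-ODC.

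**Figure D5:**
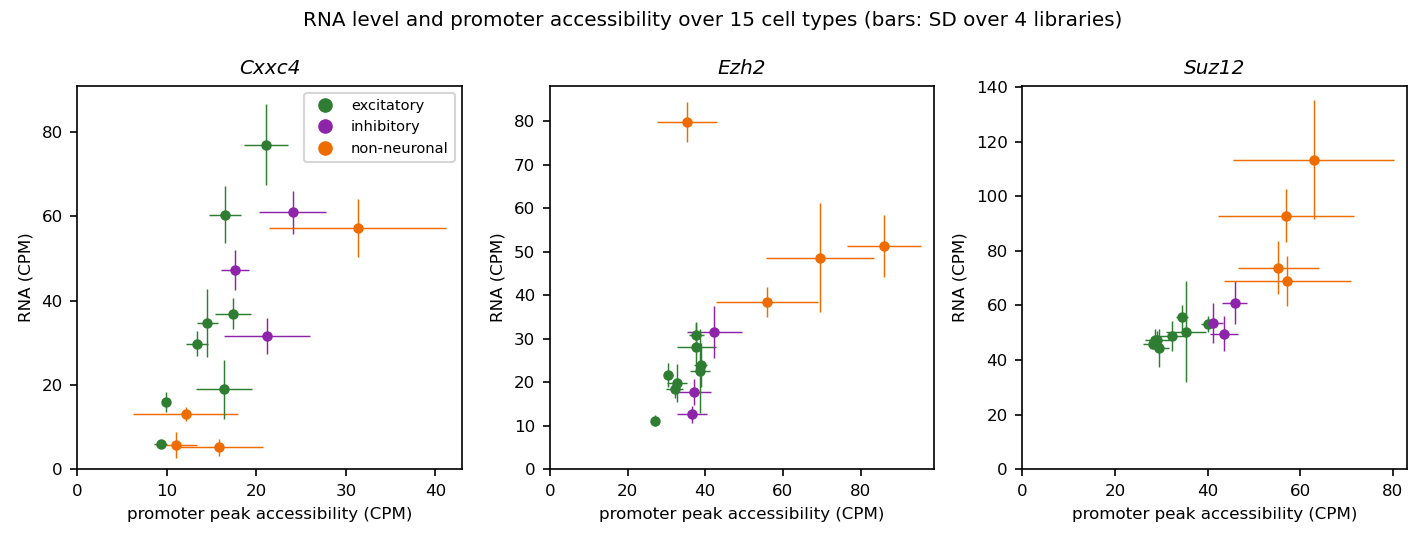
Mean RNA level against mean accessibility of the promoter peak (both in CPM, linear axes from 0) for Cxxc4, Ezh2 and Suz12 over 15 cell types, with bars of 1 SD over 4 libraries and colours by class. For Cxxc4 the Exc-DG point is lowest on the accessibility axis and NN-OPC highest, and for Suz12 the non-neuronal types lie at the upper right.

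Other genes of the same machinery were counted by list between strains, beside the same background. Of 6 other CXXC zinc finger genes, which include the DNA methyltransferase Dnmt1 and the oxidases Tet1 and Tet3, 1 of 98 tests was called, Tet3, lower in DBA. Of the other PRC2 genes 8 of 101 tests were called, all higher in DBA, and 6 of these were Jarid2, which helps bring PRC2 to its targets (log2 fold changes 0.28 to 0.85 in the called types, 5 of them non-neuronal and 1 Exc-DG). Of the PRC1 genes 17 of 345 tests were called higher and 27 lower. The lower ones included Auts2 in 11 types (-0.95 to -0.28) and Ring1, a ubiquitin ligase of the complex, in 9, with 1 call the other way.

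Of the lysine 4 methyltransferase complex (COMPASS) genes 6 of 192 tests were called higher and 7 lower, with Psip1 higher in 5 types (0.25 to 0.45). Of the demethylase genes 8 of 83 tests were called lower and 0 higher, 7 of them Kdm6b, which removes lysine 27 methylation (-1.17 to -0.59). The median log2 fold change was 0.11 over the other PRC2 genes, 0.014 over the PRC1 genes, 0.0065 over the COMPASS genes, 0.056 over the other CXXC genes and -0.032 over the demethylases, beside 0.0067 over all symbols. Between neuronal and non-neuronal types, 12 of 23 PRC1 genes were higher in neurons and 6 lower, while of 7 other PRC2 genes 2 were higher and 3 lower.

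The genes whose levels over the 17 types were most like those of the 3 most variable members were taken from 13304 symbols with counts in both strains and a mean of at least 5 CPM. For Ezh2 they were Mcm7, a subunit of the replicative helicase (Pearson's r 0.92, highest in CR-CR at 65.7 CPM), and Gtpbp10 (r 0.91). For Cxxc4 they were Ttl (r 0.87) and Slc35f1 (r 0.87), which was lowest in NN-ODC at 23.9 CPM, as Cxxc4 was. For Cxxc5 they were Rtf2 (r 0.87) and Wasf2 (r 0.87), both highest in NN-MGC and lowest in Inh-Lamp5. These correlations are over types that share libraries and are given as a description.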

How the data were processed

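Nuclei of the ventral hippocampus of B6 and DBA males were profiled by snRNA-seq and snATAC-seq (2 pooled libraries a strain and assay). Per the study's methods, the authors aligned RNA with Cell Ranger 6.0.2, introns included, and ATAC fragments with Cell Ranger ATAC 2.0.0, to mm10 for B6 and to mm10 with DBA variants substituted for DBA, and removed low-quality nuclei and doublets. They deposited raw counts summed per cell type and library over 33902 symbols or 300819 peaks. Columns number the libraries 2 and 3, so each column was placed by its strain, and its number served only as a library term or block.

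The members and the gene lists were chosen with earlier results of these data known. Strains were tested in each cell type with edgeR 4.0.16 (R 4.3.3) quasi-likelihood tests, TMM normalization, filterByExpr and Benjamini-Hochberg adjustment at 0.05, over the 24691 symbols with counts in both strains. Other symbols held 0.814% of B6 and 3.55% of DBA counts. Cell classes, and the strain difference between classes, were tested in 1 fit of all 68 columns with a mean per type and strain and a library term (32 residual degrees of freedom). SE is the absolute log2 fold change over the root of F. Other genes of a list were named where called in 1 direction in at least 5 types. Single values of some genes of these lists, markers included, are not reported here. Genes of like pattern were the 2 symbols with the highest r for each of the 3 members of widest range. The 5′ end sequences are from the RefSeq genome GRCm38.p6.

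Alternatives were DESeq2 1.42.0, RLE size factors, filters of at least 1 count or 10 peak counts, all symbols, a replicate block, class sums, a promoter window of 250 bases and leaving out each library. Same-numbered libraries deviated with r from -0.12 to 0.061 over the 17 types. The labels do not say whether the numbers pair the samples, and these values cannot decide it. On simulated data for Exc-DG the strain test recovered 52.2% of 1.5-fold and 85.1% of 2-fold changes (15863 symbols), and for NN-MGC 7.46% and 34.3% (8815 symbols). For peaks in Exc-DG it recovered 5.97% and 25.4% (20000 peaks drawn at random). The spread there was set in advance and not estimated from these counts, unlike that of the RNA simulations. These shares therefore do not measure what could be found at the member peaks, such as that of Cxxc5 in Exc-DG (SE 0.066).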

Additional observations from a re-analysis of the deposited data

Results flagged for a closer look

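The strain difference of Kdm2b, the lysine 36 demethylase that brings variant PRC1 to CpG islands, differed between neuronal and non-neuronal types by -0.30 on the log2 scale (SE 0.093, adjusted p = 0.037, edgeR quasi-likelihood test of the interaction). Its fold change was positive in 13 of the 17 types. It was 0.60 in NN-MGC, 0.54 in NN-VLMC (adjusted p = 0.496) and 0.39 in NN-Astro (adjusted p = 0.066). Among neurons it ran from -0.042 in Exc-CA3 to 0.33 in Exc-Cdh12 (adjusted p = 0.471). Not every non-neuronal type stood apart. In NN-ODC, Kdm2b was at 41.1 and 42.2 CPM in B6 and 48.95 and 39.8 CPM in DBA. In NN-OPC it was at 70.5 and 57.6 against 69.4 and 72.3 CPM, so the strains overlapped in both. The call was lost without any 1 of the 4 libraries (-0.39 to -0.19), with no library block (adjusted p = 0.054), at least 1 count (0.052), all symbols (0.067) or class sums (0.116), and a cause was not tested.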

How the results depend on the processing

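Of the 19 calls between strains, DESeq2 kept 7 and fits without 1 library kept 12 to 15, making 12 to 18 calls with new ones. Counts summed over the excitatory, inhibitory and non-neuronal types, which are other tests, gave 6 calls in 30. For Cxxc5, DESeq2 called 6 types against 13, and leaving out 1 library gave 10 to 13. Outside Cxxc5, DESeq2 made 1 call against 6, and leaving out 1 library gave 1 to 7. The replicate block gave 18 calls between strains, losing Cxxc1 in Exc-DG and Kdm2b in NN-MGC and gaining 1, and a crossed block, chosen after seeing the data, gave 21. Leaving out 1 library gave 3 to 7 members for inhibitory against excitatory types and 3 to 5 for Exc-DG. The interaction call of Kdm2b fell from 1 to 0 with at least 1 count, all symbols, no replicate block or class sums, and to 0 to 0 without 1 library. Promoter peaks gave 0 to 1 calls without 1 library. Ezh1 in neurons reversed to 0.13 with class sums. In all other alternatives the 30 class results and 19 strain results kept their direction, and 22 of 316 class values and 39 of 190 strain values lost the call. The cause was not tested. Few nuclei limit the non-neuronal ATAC columns and CR-CR, and 2 libraries a strain limit every strain test.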
